A study of Mus musculus with 2 samples.

Results

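This account describes 32 genes of the protein-folding machinery, taken as the rows whose symbol is one of 32 names of heat shock proteins and co-chaperones. All 32 were found once each among the 56941 genes of both tables. They were grouped by textbook role into 9 heat-inducible cytosolic genes, 3 small heat shock proteins, 12 mainly constitutive cytosolic genes, 1 transcription factor, 4 genes of the endoplasmic reticulum (ER) and 3 mitochondrial genes. The samples were subcutaneous tumours grown in C57BL/6 mice from MC38 cells, a mouse colon adenocarcinoma line, and each group was 1 single-cell RNA library. The first group carried a lentiviral SPP1 construct and the second a lentiviral control vector, each as a stable pool of cells rather than 1 clone. Both groups, given as wild type in genotype, received anti-PD-1 antibody at 10 mg/kg, 2 injections a week for 2 weeks from day 7, and untreated tumours were not analysed here. The sources used here give neither the age of the mice nor the number behind each library. Over all kept cells, mouse Spp1 itself was 249.96 CPM (its UMI count scaled to a common library total) in the SPP1-labelled library and 287 CPM in the vector-labelled one. By class it was higher under the SPP1 label in macrophage/monocyte-like cells (2643 and 2286 CPM) and T and NK-like cells (3385 and 1161 CPM), and lower in the large compartment defined below (127 and 134 CPM). The labels do not say which species' sequence the construct holds, so mouse Spp1 does not settle which library carries it, and the groups are called by their labels throughout.

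Heat shock proteins are chaperones that hold, fold or refold other proteins. Under heat, oxidants or other damage to proteins, the transcription factor HSF1 trimerises and switches on the inducible genes, among them Hspa1a, Hspa1b, Dnajb1 and Hsph1, from short DNA sites called heat shock elements. The constitutive members serve folding in unstressed cells, while the ER members answer to the unfolded protein response and the mitochondrial ones fold imported proteins. Tumour cells often hold raised chaperone levels, and enzymatic dissociation of a tissue can itself switch the inducible genes on.

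After filtering and removal of predicted doublets, 13530 cells were kept in the library labelled SPP1 and 13913 in the library labelled vector. Median depths before filtering were 10218 and 10277 UMIs (unique molecular identifiers, counted molecules), and 93 barcodes were shared between the libraries. The cells were clustered without the 32 genes. The comparisons below use 3 sets: a large compartment of 10484 and 10488 cells in the libraries labelled SPP1 and vector, macrophage/monocyte-like cells (739 and 913) and T and NK-like cells (119 and 188). The compartment was labelled only by its leading genes Hmga2, Sox9, Tafa1 and Hoxa9. It held fibroblast-type markers at 1998 and 1744 CPM summed over 9 genes, against 85.3 and 70.7 CPM in macrophage/monocyte-like cells. Cluster 17, outside the 3 sets, had 8 of these 9 raised over all other cells, with a mean log2 ratio of 3.29 over the list. The compartment held almost none of the 6 epithelial tumour markers, at 1.84 and 2.02 CPM summed. It is therefore not called a tumour cell class here. A further 1809 and 1907 cells of low UMI counts and 354 and 372 cells in mixed clusters stayed outside the 3 sets. With 1 library a group there is no replicate check: every interval below covers counting error only, at 95%, and the construct, the mouse and the library cannot be told apart. As a yardstick, compartment genes of 1000 UMIs or more had a median absolute log2 ratio of 0.12 between the libraries.

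Of the 32 members, Hspa1a, one of the neighbouring inducible HSP70 genes, had the largest ratio between the classes. Macrophage/monocyte-like cells held 259 CPM of Hspa1a (246 to 273) in the library labelled SPP1 and 244 CPM (233 to 256) in the library labelled vector. In the compartment the same gene was almost not counted, at 1.07 CPM (0.907 to 1.26) and 1.36 CPM (1.18 to 1.57), from 152 and 195 UMIs over all compartment cells. The log2 ratio of macrophages over the compartment was 7.92 (7.68 to 8.17) in the library labelled SPP1 and 7.49 (7.27 to 7.71) in the library labelled vector. A Hspa1a UMI was present in 32.6% and 30.4% of macrophage/monocyte-like cells, against 0.906% and 1.00% of compartment cells, which had deeper medians of 11789 and 12189 UMIs against 6930 and 7511. For comparison, 14 macrophage markers with a UMI reached 0.248% and 0.266% of their macrophage level in the compartment when summed, and singly up to 1.12% and 0.911%. Hspa1a stood at 0.413% and 0.557% of its macrophage level, above the sum and within the single-gene span. The 3 highest cells held 19.7% and 31.3% of its compartment UMIs, and the part of free RNA in these counts was not tested.

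Hspa1b, the near-identical partner gene that encodes nearly the same HSP70 protein, did not follow this split. Macrophage/monocyte-like cells held 188 CPM (177 to 200) and 217 CPM (207 to 229) in the libraries labelled SPP1 and vector, and T and NK-like cells 104 CPM (78.4 to 135) and 73.6 CPM (55.6 to 95.5). In the compartment it was counted at 228 CPM (226 to 231) and 218 CPM (216 to 221). The log2 ratio of macrophages over the compartment was -0.28 in the library labelled SPP1 and -0.01 in the library labelled vector.

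Set against each other as a share of the UMIs of both genes, Hspa1a made up 57.9% (55.9 to 59.9) and 52.9% (51.1 to 54.7) of the pair in macrophage/monocyte-like cells of the libraries labelled SPP1 and vector. In the compartment the share was 0.467% (0.396 to 0.547) and 0.620% (0.536 to 0.713). The split held cluster by cluster. Across the 12 clusters of the compartment it ran between 0.0978% and 2.86% in the library labelled SPP1 and between 0.143% and 2.06% in the library labelled vector. Cluster 7, with Hspa1b at 387 and 412 CPM, still had only 0.143% and 0.378% from Hspa1a, and cluster 0, at 391 and 352 CPM, had 0.174% and 0.143%. All 7 clusters with a raised list of cell type markers lay higher. Cluster 17 was led by Igfbp5, Mfap5 and Lox. It had 4 of 6 pericyte or smooth muscle-like markers and 8 of 9 fibroblast-like markers raised, and is given no single name here. The share was 46.9% (40.2 to 53.6) and 50.5% (43.5 to 57.4) in cluster 17. It was 49.1% (41.1 to 57.1) and 26.5% (12.9 to 44.4) in an endothelial-like cluster, and 47.1% (39.4 to 54.9) and 53.8% (43.8 to 63.7) in the dendritic cell-like cluster. In the T and NK-like clusters it was 44.9% (34.8 to 55.3) and 14.4% (8.12 to 23.0) for cluster 16 and 11.7% (4.82 to 22.6) and 5.71% (0.70 to 19.2) for cluster 18. These shares use all cells of each cluster, not the T and NK-like or macrophage/monocyte-like sets. As wholes, clusters 14 and 16 to 19 were mixed, with leading compartment genes at 0.25 to 0.55 of their compartment level. The part of compartment RNA in their shares was not tested. Reads that fit both genes equally are a limit here, since how the authors' counting divided or dropped them is not given in the sources used here.

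**Figure D1:**
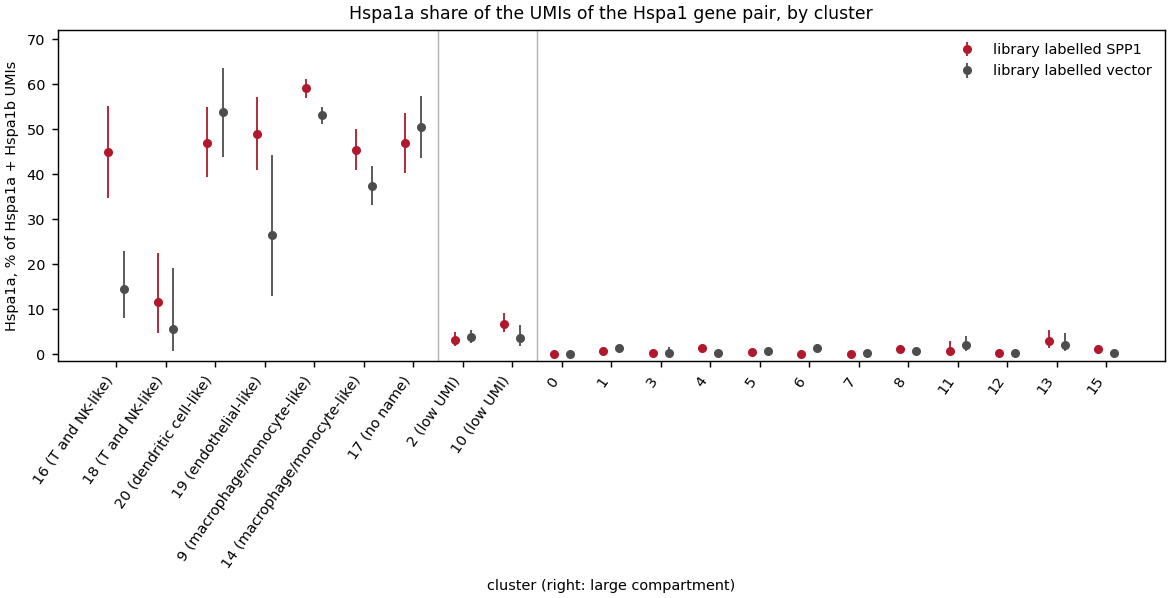
Hspa1a as a percentage of Hspa1a plus Hspa1b UMIs (vertical axis) in each cluster (horizontal axis), with exact 95% binomial intervals, for the library labelled SPP1 (red, left of each pair) and the library labelled vector (grey, right). The 7 clusters with raised cell type markers lie at 5.71% to 59.1%, the 2 low-UMI clusters at 3.17% to 6.84%, and the 12 clusters of the large compartment at or under 2.86%.

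T and NK-like cells held 83.2 CPM of Hspa1a (60.5 to 112) in the library labelled SPP1 and 21.0 CPM (12 to 34.1) in the library labelled vector. Most of its 44 and 16 UMIs, 79.5% and 75.0%, came from just 3 cells of each library. The log2 ratio of T and NK-like cells over the compartment was 6.28 (5.76 to 6.77) and 3.95 (3.11 to 4.68). Among the sub-classes, CD8 T-like cells (54 and 83) held 114 and 32.4 CPM, regulatory T-like cells (13 and 30) 62.8 and 21.6 CPM, and NK-like cells (29 and 41) 11 and 4.06 CPM. In cells as few as these the order of the sub-classes is a description of these libraries.

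The promoter windows of the pair and of other members whose levels are described below are shown because they hold, or lack, the sites through which stress is known to act. They are the RefSeq windows of build GRCm38.p6, from 250 bases before to 50 bases after a gene's start, 300 bases each, read 5′ to 3′ on the gene's strand. For the first 5, capitals mark GAANNTTC or TTCNNGAA, the shortest pairing of heat shock element units, and overlapping matches run together. For Hspa5, capitals mark the ER stress response element, CCAAT and CCACG separated by 9 bases of any kind. For Hsph1 it is 1 of its 2 windows.
Hspa1a (chr17:34972107-34972406, minus strand): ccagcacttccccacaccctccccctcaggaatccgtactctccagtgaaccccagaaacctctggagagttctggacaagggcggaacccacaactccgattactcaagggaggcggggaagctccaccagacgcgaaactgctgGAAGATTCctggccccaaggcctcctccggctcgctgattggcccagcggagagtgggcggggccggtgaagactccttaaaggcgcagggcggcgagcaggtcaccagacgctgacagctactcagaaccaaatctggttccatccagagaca
Hspa1b (chr17:34959189-34959488, minus strand): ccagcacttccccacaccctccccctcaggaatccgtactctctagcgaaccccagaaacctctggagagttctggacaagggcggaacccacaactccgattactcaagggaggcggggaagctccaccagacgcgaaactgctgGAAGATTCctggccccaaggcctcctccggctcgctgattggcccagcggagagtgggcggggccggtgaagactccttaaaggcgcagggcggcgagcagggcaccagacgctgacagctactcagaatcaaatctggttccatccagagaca
Hspb1 (chr5:135887669-135887968, plus strand): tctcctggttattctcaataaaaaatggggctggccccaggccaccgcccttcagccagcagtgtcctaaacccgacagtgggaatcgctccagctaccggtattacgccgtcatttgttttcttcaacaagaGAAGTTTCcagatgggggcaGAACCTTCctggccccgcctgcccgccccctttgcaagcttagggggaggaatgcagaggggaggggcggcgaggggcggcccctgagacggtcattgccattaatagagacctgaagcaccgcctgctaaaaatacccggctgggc
Hsph1 (chr5:149636266-149636565, minus strand): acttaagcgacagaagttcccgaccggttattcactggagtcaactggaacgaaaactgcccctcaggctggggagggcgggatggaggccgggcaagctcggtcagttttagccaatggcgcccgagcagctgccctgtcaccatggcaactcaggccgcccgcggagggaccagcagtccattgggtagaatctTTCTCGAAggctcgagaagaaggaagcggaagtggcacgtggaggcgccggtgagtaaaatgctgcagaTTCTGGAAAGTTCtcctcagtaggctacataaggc
Chordc1 (chr9:18292017-18292316, plus strand): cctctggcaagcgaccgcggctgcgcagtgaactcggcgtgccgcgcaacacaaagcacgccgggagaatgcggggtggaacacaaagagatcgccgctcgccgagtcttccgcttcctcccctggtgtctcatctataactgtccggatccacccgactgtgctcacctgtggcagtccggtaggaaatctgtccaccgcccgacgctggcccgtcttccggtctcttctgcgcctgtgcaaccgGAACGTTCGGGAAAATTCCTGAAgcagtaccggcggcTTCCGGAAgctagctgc
Hspa5 (chr2:34771840-34772139, plus strand): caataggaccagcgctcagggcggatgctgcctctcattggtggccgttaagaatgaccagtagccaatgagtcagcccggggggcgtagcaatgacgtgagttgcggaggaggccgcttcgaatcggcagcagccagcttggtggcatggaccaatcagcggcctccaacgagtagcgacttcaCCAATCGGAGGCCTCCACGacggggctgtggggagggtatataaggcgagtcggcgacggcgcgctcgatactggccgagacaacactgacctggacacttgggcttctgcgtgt

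The windows of Hspa1a and Hspa1b shared 296 of 300 bases, and both held the same single heat shock element pair 104 bases before the start. The 4 differences, counted from 1 at the 5′ end of the window with the Hspa1a base first, were C44T, T47C, T249G and C276T, and none lay in the marked site. Of the 32 members, 25 had a window in the table: Hspa8, Hspa9, Hsp90aa1, Hsp90ab1, Cryab, Hsf1 and St13 had none. A heat shock element pair on either strand was found for 14 of the 25, against 17.0% of all 27025 genes with a window, and for 7 of the 8 inducible genes with a window. The longer form of 3 units, which is GAANNTTC followed by NN and GAA, on either strand, and so contains the pair, was found for 5 of 25 members (Hsph1, Chordc1, Hspd1, Hspe1 and Dnajb6), against 0.662% of all genes. Chordc1, a co-chaperone of HSP90, had 3 such matches. The ER stress response element was found for 3 of the 4 ER members, namely Hspa5, Hsp90b1 and Dnajc3, and for no other member, against 0.137% of all genes. These matches describe letters in a window and not bound sites. The shared site of Hspa1a and Hspa1b counts for both genes, and overlap between the windows of other members was not tested.

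Hspb1, the small heat shock protein also called HSP25 in mouse, showed the same kind of restriction at lower counts. In macrophage/monocyte-like cells it was 13.5 CPM (10.6 to 17.0) and 17.4 CPM (14.4 to 20.9) in the libraries labelled SPP1 and vector, and the 3 highest cells held 51.4% and 61.3% of those UMIs. In the compartment it was 0.810 CPM (0.669 to 0.973) and 0.998 CPM (0.841 to 1.18). The log2 ratio of macrophages over the compartment was 4.06 (3.61 to 4.50) and 4.13 (3.76 to 4.49). Its compartment level was 6.00% and 5.73% of that in macrophages, above the span of the macrophage markers. In T and NK-like cells it had 0 UMIs in the library labelled SPP1, which allows up to 5.67 CPM at 3 counts, and 3 UMIs in the library labelled vector. The highest levels were in cluster 17, at 275 and 83.2 CPM, and the endothelial-like cluster, at 123 and 147 CPM.

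The other small heat shock proteins had the opposite distribution. Cryab, the stress chaperone alpha-B crystallin, was 13.7 CPM (10.7 to 17.2) and 11.6 CPM (9.16 to 14.4) in macrophage/monocyte-like cells of the libraries labelled SPP1 and vector, against 199 CPM (197 to 201) and 168 CPM (166 to 170) in the compartment. Hspb8, a partner of Bag3 in selective autophagy, was 3.56 and 3.37 CPM in macrophage/monocyte-like cells, against 53.5 and 45.1 CPM in the compartment. In macrophages these levels are 6.88% and 6.89% of the compartment's for Cryab and 6.66% and 7.46% for Hspb8. Summed, 6 leading genes of the compartment reached 4.66% and 3.85% of their compartment level in macrophages and 5.82% and 6.00% in T and NK-like cells. This sum was partly held low in advance. Sub-clusters with Hmga2, Sox9, Tafa1 and Hoxa9 at 0.25 or more of their compartment level had been left out of both classes. In T and NK-like cells Cryab stood at 4.75% and 4.69% of its compartment level, from 5 and 6 UMIs. Hspb8 stood at 14.1% and 8.74% there, from 4 and 3 UMIs. Single genes of the 6 ran from 1.74% (Prrx1, 3 UMIs in the library labelled SPP1) to 13.8% (Hoxa9, 4 UMIs in the library labelled vector). With counts this low the order of these genes is not settled. The part of free RNA in these counts was not tested.

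Over the whole set, 2 of the 32 members (Hspa1a and Hspb1) were at least 2-fold higher in macrophages than in the compartment in both libraries, against 12.2% of 20531 genes, and 14 were at least 2-fold lower, against 17.8%. Set against the compartment in the same way, T and NK-like cells had 1 higher member (Hspa1a), against 6.66% of 20205 genes, and 10 lower ones, against 9.94%. These gene shares take in all genes with at least 20 UMIs. No share for genes of like depth is given. In macrophages the lower members included 5 of 9 inducible, 5 of 12 constitutive cytosolic and 2 of 3 mitochondrial genes. Of the inducible genes, Dnajb1, the J-domain partner that hands clients to HSP70, had log2 ratios of macrophages over the compartment of -2.36 and -2.45 in the libraries labelled SPP1 and vector. Hsph1, the exchange factor HSP110, had -2.15 and -1.55, Dnajb4 -1.90 and -1.66, and Hsp90aa1, the inducible HSP90, -1.41 and -1.36. Dnaja4 was counted with only 2 UMIs in the macrophages of each library, under the floor of 3 counts. Of the constitutive genes, Hsp90ab1 (-1.68 and -1.72), Hspa4l (-1.85 and -1.79), Fkbp4 (-1.87 and -1.61), Stip1 (-1.43 and -1.71) and Dnajb2 (-1.96 and -1.16) passed, of which Stip1 and Fkbp4 are co-chaperones that link HSP90 to HSP70 or to steroid receptors. The main constitutive HSP70, Hspa8, did not, with -0.08 and -0.21.

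Among the ER members, Hspa5, the ER HSP70 known as BiP, was 518 and 558 CPM in macrophage/monocyte-like cells of the libraries labelled SPP1 and vector, 443 and 480 CPM in T and NK-like cells and 586 and 569 CPM in the compartment. Hsp90b1, the ER HSP90, was 738 and 782 CPM in macrophages, 581 and 507 CPM in T and NK-like cells and 792 and 787 CPM in the compartment. None of the 4 ER members passed 2-fold in both libraries in either comparison. Dnajb9 and Dnajc3, co-chaperones of BiP, had positive log2 ratios in macrophages, of 0.71 and 0.86 for Dnajb9 and 0.38 and 0.80 for Dnajc3. In T and NK-like cells Dnajc3 was 151 and 127 CPM, against 72.7 and 66.4 CPM in the compartment, with log2 ratios of 1.06 (0.72 to 1.37) and 0.94 (0.64 to 1.23). Among the mitochondrial genes, the chaperonin pair Hspd1 (-1.75 and -1.69) and Hspe1 (-1.35 and -1.35) passed as lower in macrophages, while Hspa9, the mitochondrial HSP70, had -0.97 and -1.004. Bag1, an HSP70 exchange factor, and Dnajb6, a J-domain protein that curbs aggregation, had positive log2 ratios in macrophages, of 0.95 and 0.85 for Bag1 and 0.42 and 0.50 for Dnajb6, under 2-fold. With TMM scaling, whose log2 factors for macrophages relative to the compartment were -0.11 and -0.14, the counts were again 2 higher and 14 lower, and log2 ratios nearer to 0 than these factors, such as those of Hspa5 and Hspa1b in the library labelled vector, turn sign.

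**Figure D2:**
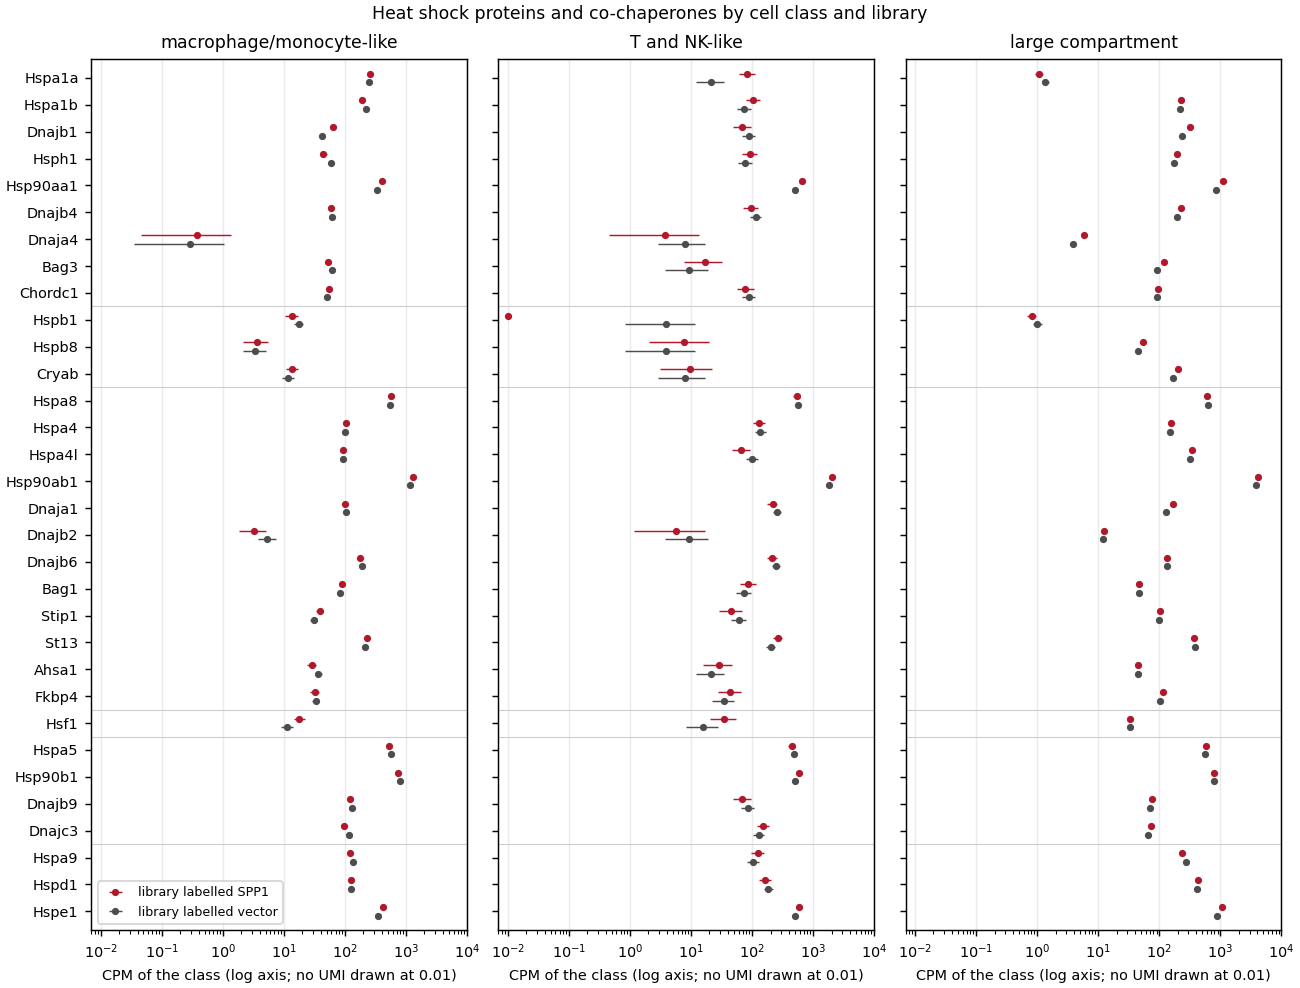
CPM of each member (rows, grouped by role) in macrophage/monocyte-like cells, T and NK-like cells and the large compartment, on log axes, with exact 95% Poisson intervals, for the library labelled SPP1 (red, upper point) and the library labelled vector (grey, lower point); a gene without a UMI is drawn at 0.01. Hspa1a and Hspb1 are at 259 and 13.5 CPM in macrophages of the library labelled SPP1 and at 1.07 and 0.810 CPM in its compartment, while Hspa5 lies between 443 and 586 CPM in all 3 panels; levels of different genes are not compared.

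Summed over the compartment, library differences of the members were small. In the compartment 0 of 32 passed 1.5-fold with an interval clear of 0, against 8.39% of 20014 genes and 2.07% of the 10795 genes with at least 1000 UMIs. Their median log2 ratio, SPP1-labelled over vector-labelled, was 0.08, against 0.01 over all genes, and 26 members lay above 0 and 6 below. Of all 20014 genes 10550 lay above 0, and of the 10795 genes with at least 1000 UMIs 5172 did. The inducible genes had a median of 0.20, the constitutive cytosolic genes 0.03, the ER genes 0.06 and the mitochondrial genes 0.06.

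Hsp90aa1 was 1084 CPM in the compartment of the library labelled SPP1 and 855 CPM in that of the library labelled vector, a log2 ratio of 0.34 (0.33 to 0.35). It was above 0 with its interval in 10 of the 11 clusters that both libraries filled. Its median over those clusters was 0.35, and it kept the sign in macrophages, at 408 and 333 CPM (0.30, 0.21 to 0.38), and in T and NK-like cells, at 654 and 510 CPM (0.36, 0.15 to 0.57). Of the macrophage sub-clusters described below, numbers 1, 3, 6, 7 and 9 were above 0 with their intervals. Sub-clusters 0 (-0.22), 4 (-0.19) and 10 (-0.09) lay below 0 and 5 (0.09) above, with intervals that reach 0. After thinning to equal depth the T and NK-like value was -0.06.

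Dnajb1 was 322 CPM and 231 CPM in the compartments of the libraries labelled SPP1 and vector, a log2 ratio of 0.48 (0.46 to 0.50), with 9 of 11 clusters above 0. Bag3, which couples HSP70 to autophagy, was 120 and 92.4 CPM (0.38, 0.34 to 0.41), with 8 of 11 clusters above 0. Dnaja1, a J-domain protein of HSP70, was 167 and 129 CPM (0.37, 0.34 to 0.40), and Dnaja4 was 5.78 and 3.92 CPM (0.56, 0.41 to 0.72). The chaperonin lid Hspe1 was 1063 and 893 CPM (0.25, 0.24 to 0.26) and Cryab 199 and 168 CPM (0.25, 0.22 to 0.27). Going the other way, Hspa9 was 234 and 274 CPM (-0.23, -0.25 to -0.20), below 0 in 7 of 11 clusters. St13, the HSP70-interacting protein, was 366 and 387 CPM (-0.08, -0.10 to -0.06) and below 0 in 8 of 11. Hspa1b, in contrast with Dnajb1, was nearly level at 0.06 (0.04 to 0.09), with 3 clusters above 0 and 4 below.

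Part of these ratios moved with 1 cluster. Cluster 3, led by Pcdh9, Nrep and Magea9, held 2229 cells of the library labelled SPP1 and 102 of the library labelled vector. Without it, the median of all 32 members was 0.04, with 21 above 0 and 11 below. The median of the inducible genes was 0.01, Dnajb1 0.27, Bag3 0.16, Dnaja1 0.15 Dnaja4 0.27 and Cryab 0.15, and Hspa1b turned to -0.12, Hsph1 to -0.02, Dnajb4 to -0.01, Dnajb6 to -0.04 and Dnajb9 to -0.11. Hsp90aa1 (0.34), Hsp90ab1 (0.11), Hspe1 (0.26), Fkbp4 (0.22) and St13 (-0.08) were near their values with it. Hspa9 was -0.16.

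In macrophage/monocyte-like cells 1 of 31 members with at least 20 UMIs passed 1.5-fold, against 6.93% of 11982 genes. It was Hsf1, the heat shock transcription factor itself, at 17.8 CPM in the library labelled SPP1 and 11.3 CPM in the library labelled vector, from 95 and 77 UMIs (0.66, 0.21 to 1.11). Over the alternatives it lay between 0.50 and 0.68, and it no longer passed with equal sub-cluster weights, with the marker-named clusters kept whole, after thinning, or without the heat shock-high cells defined below. Dnajb1 was 62.8 and 42.2 CPM (0.58, 0.34 to 0.81). Hsph1 was 43.9 and 59.7 CPM (-0.44, -0.68 to -0.21), and all 4 ER members lay below 0, between -0.29 (Dnajc3) and -0.07 (Dnajb9). Of all 11982 genes 5988 lay below 0.

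Of the 26 members with enough UMIs in T and NK-like cells, 2 passed, against 9.09% of 6862 genes. Hspa1a was higher in the library labelled SPP1 (1.98, 1.13 to 2.91). Its value was 0.14 without the 4 and 2 heat shock-high cells defined below. Those cells are called by Hspa1a itself, with Hspa1b and Dnajb1, so leaving them out removes Hspa1a UMIs by rule. The fall to 0.14 is therefore no separate test of the difference, and few Hspa1a UMIs were left. Hspa4l, an HSP110 relative, was lower, at 66.2 and 101 CPM (-0.61, -1.23 to -0.02). Over the alternatives Hspa4l lay between -0.64 and -0.24, and it no longer passed with median of ratios scaling, with equal cluster weights (-0.40), after thinning (-0.24), with the marker-named clusters kept whole (-0.31) or without the heat shock-high cells.

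**Figure D3:**
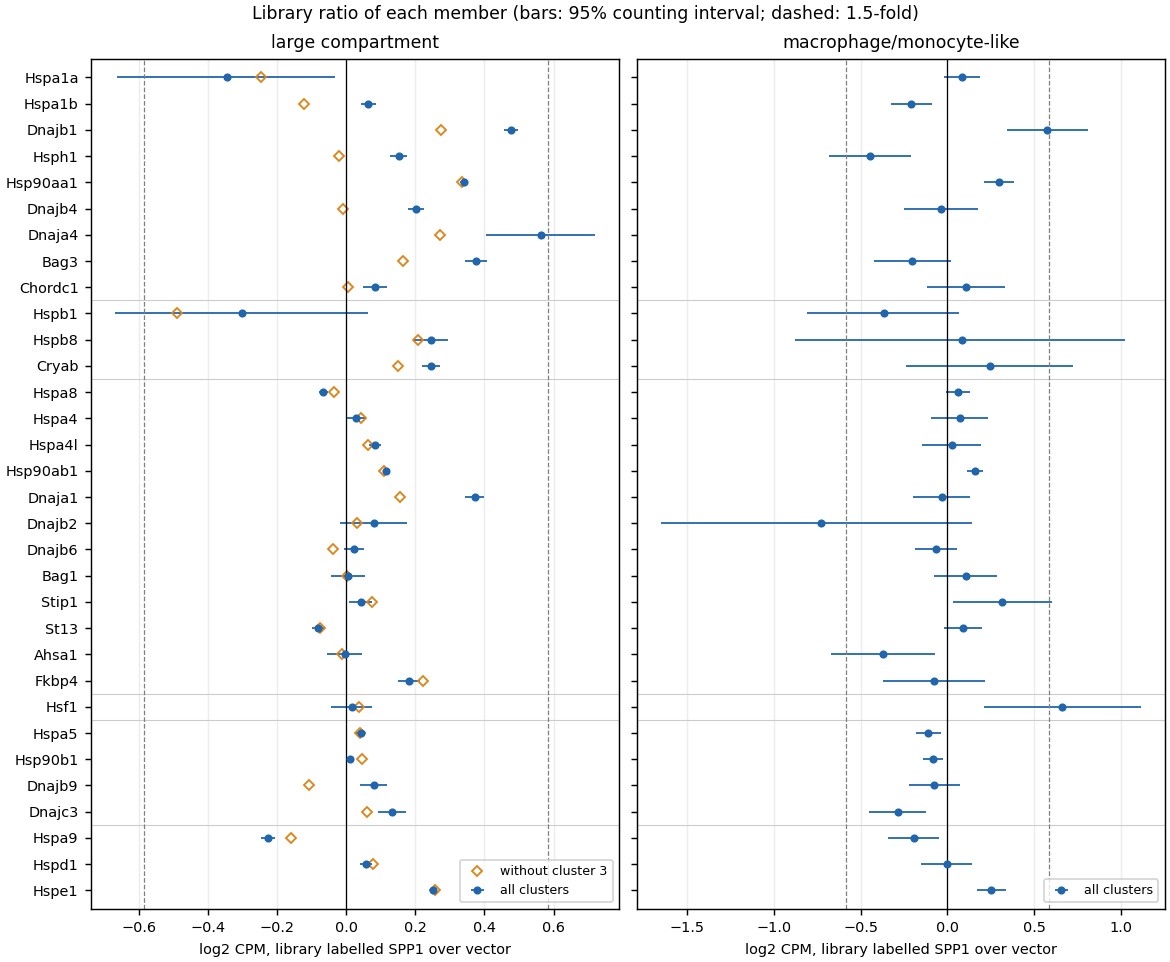
Log2 ratio of CPM, library labelled SPP1 over library labelled vector (horizontal axes), for each member (rows) in the large compartment and in macrophage/monocyte-like cells; bars are 95% counting intervals, dashed lines mark 1.5-fold, and open diamonds give the compartment without cluster 3. In the compartment no filled point passes 1.5-fold, and Dnajb1 lies at 0.48 with cluster 3 and at 0.27 without it.

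The other genes of these pathways, outside the 32, had medians at or below 0.01 between the libraries in the compartment. Of 34 other cytosolic chaperones and cofactors, 0 passed 1.5-fold (median log2 ratio -0.06), of 23 further unfolded protein response genes 0 (-0.06), of 9 mitochondrial folding genes and proteases 0 (-0.06), of 14 immediate early genes 0 (0.01) and of 10 proteasome genes 0 (-0.02). Their members with the highest ratios included Hspb6 at 11.6 and 9.05 CPM (0.35) and Stub1, a ubiquitin ligase bound to HSP70, at 62.2 and 48.9 CPM (0.35). The lowest included Hspa12a (-0.41), Dnaja3 (-0.38) and Trib3 (-0.45). In macrophages none of the 5 lists had a member past 1.5-fold. In T and NK-like cells 6 of 14 immediate early genes passed as lower in the SPP1-labelled library, where 9.09% of all genes passed in either direction, with Dusp1 at 419.9 and 765 CPM (-0.86) and Btg2 at 349.9 and 566 CPM (-0.69). Passing as higher there were 2 of 27 other cytosolic chaperones, among them the chaperonin subunit Tcp1 at 204 and 134 CPM (0.61), 1 of 19 unfolded protein response genes and 1 of 10 proteasome genes.

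To count stressed cells at equal depth, each cell was thinned to 1000 UMIs and called heat shock-high where Hspa1a, Hspa1b and Dnajb1 together held at least 3 of them. The call is a range of a continuous count and not a cell type. In the compartment 651 of 10318 cells were heat shock-high in the library labelled SPP1, 6.31% (5.85 to 6.80), and 473 of 10368 in the library labelled vector, 4.56% (4.17 to 4.98). Of these, 359 and 265 held exactly 3, and 846 and 684 further cells held 2. Cells too shallow to thin numbered 166 and 120 there, 62 and 55 among macrophages and 7 and 8 among T and NK-like cells. At full depth 85.8% and 84.5% of compartment cells held at least 1 UMI of the 3 genes. In macrophage/monocyte-like cells the share was 6.20% (4.51 to 8.29; 42 of 677) and 5.48% (4.05 to 7.22; 47 of 858), and in T and NK-like cells 3.57% (0.982 to 8.89; 4 of 112) and 1.11% (0.135 to 3.96; 2 of 180).

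The log2 ratio of the compartment shares, SPP1-labelled over vector-labelled, was 0.47 (0.30 to 0.63). It was 0.21 (0.03 to 0.40) without cluster 3, 0.29 with equal cluster weights, and 0.14 (-0.16 to 0.43) where Hspa1a and Hspa1b were counted without Dnajb1. In macrophages the ratio was 0.18 (-0.40 to 0.76) and in T and NK-like cells 1.68 (-0.74 to 4.11), so no difference was detectable there at this threshold and number of cells. With at least 2 UMIs as the threshold the macrophage ratio was 0.48 (0.03 to 0.93).

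The 3 genes did not carry the call equally. In heat shock-high compartment cells Hspa1b was 1127 and 1276 CPM and Dnajb1 1155 and 926 CPM in the libraries labelled SPP1 and vector, with Hspa1a at 4.35 and 15.1 CPM. In heat shock-high macrophages Hspa1a was 2902 and 3126 CPM and Hspa1b 2502 and 3413 CPM, with Dnajb1 at 170 and 153 CPM. Median depth was 10541 and 10048 UMIs in heat shock-high against 12003 and 12430 in other compartment cells. The median share of mitochondrial UMIs was 1.62% and 1.65% in heat shock-high against 1.71% and 1.63% in other compartment cells. The part of depth in the call was not tested.

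Other members that took no part in the call moved with it. In the compartment 11 of the 29 remaining members were at least 1.5-fold higher in heat shock-high cells in both libraries, against 1.62% of 20008 genes, and none was lower, against 1.5%. These gene shares take in all genes with at least 20 UMIs, and most members had far more. No share for genes of like depth is given. The higher members were 5 of 6 inducible genes, all 3 small heat shock proteins, Dnaja1, Hspe1 and Dnajb9. Of these, Hspb1 rests on only 20 and 17 UMIs in the called cells. It was 2.56 and 3.21 CPM there, against 0.702 and 0.907 CPM in other compartment cells. Hsph1 was 579.9 CPM in heat shock-high and 172 CPM in other cells of the library labelled SPP1, and 538 and 161 CPM in the library labelled vector (log2 ratios 1.75 and 1.74). Cryab was 595 and 176 CPM, then 512 and 155 CPM (1.76 and 1.73). Dnaja4 had log2 ratios of 2.16 and 2.07, Bag3 1.64 and 1.49, Dnaja1 1.60 and 1.39, Dnajb4 1.56 and 1.48 and Hsp90aa1 1.03 and 0.92. The constitutive Hsp90ab1 (0.35 and 0.32), Hspa8 (0.49 and 0.29) and Hspa4 (0.23 and -0.06), the ER gene Hsp90b1 (0.20 and 0.04) and Hsf1 (-0.15 and -0.13) stayed under 1.5-fold. Immediate early genes were also high in these cells, 12 of 14 in both libraries, at 15763 and 8120 CPM summed in the library labelled SPP1 and 16562 and 8140 CPM in the library labelled vector. Their part in the result was not tested.

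In macrophage/monocyte-like cells 12 of 29 members were higher in heat shock-high cells, against 1.35% of 11955 genes, and none lower, against 1.57%. Here too the sub-clusters are pooled, and no share for genes of like depth is given. Hspb1 was 201 CPM in heat shock-high and 3.59 CPM in other macrophages of the library labelled SPP1 and 212 and 8.63 CPM in the library labelled vector (log2 ratios 5.81 and 4.62). Hsph1 had 3.54 and 3.83, Dnaja1 2.22 and 2.13, Hsp90aa1 2.14 and 2.14 and Bag3 1.95 and 1.81. In contrast with the compartment, the list also held Hspa5, at 1174 and 485 CPM, then 1028 and 537 CPM (1.28 and 0.94), Hspa8 (1.04 and 0.81), Hspd1 (0.96 and 1.60) and Hspa4l (0.71 and 1.47). That these differ between the classes was not tested. Immediate early genes did not move together here, with 1 of 14 higher and 1 lower. Among the other genes with at least 100 UMIs in the high cells, Hmox1, a heme-degrading enzyme induced by oxidative stress, was higher at 1.65 and 1.86 in macrophages and 1.70 and 1.84 in the compartment. In T and NK-like cells 1 member, Hsp90ab1, passed as higher (0.92 and 1.13), against 0.249% of 6827 genes, and none as lower, against 0.161%, from 4 and 2 heat shock-high cells.

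Hsph1 and Hsp90aa1 were higher at each step of the count in the compartment. The steps pool all clusters of a class. From 0 to 1, 2, 3 to 5 and at least 6 UMIs of the 3 genes, Hsph1 in the compartment was 129, 243, 369, 573 and 669.5 CPM in the library labelled SPP1 and 132, 216, 333, 488 and 1049 CPM in the library labelled vector. Hsp90aa1 was 935, 1169, 1466, 2050.0 and 2590 CPM and 774, 926, 1164, 1487 and 2389 CPM. Bag1 was 47.0, 45.2, 43.7, 36.8 and 36.5 CPM and 46.5, 44.5, 42.0, 39.4 and 51.9 CPM, and its log2 ratio in heat shock-high over other compartment cells was -0.33 (-0.51 to -0.16) and -0.18 (-0.38 to 0.02). In macrophages Hspb1 was 3.60, 1.62, 8.81, 160.3 and 253 CPM in the library labelled SPP1 and 7.93, 8.96, 28.8, 54.6 and 364 CPM in the library labelled vector. In the library labelled SPP1 it thus stayed at or under 8.81 CPM up to 2 UMIs, and the jump came at 3 to 5. The steps at 3 to 5 and at least 6 UMIs there rest on 22 and 20 cells of the library labelled SPP1 and 24 and 23 of the library labelled vector.

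**Figure D4:**
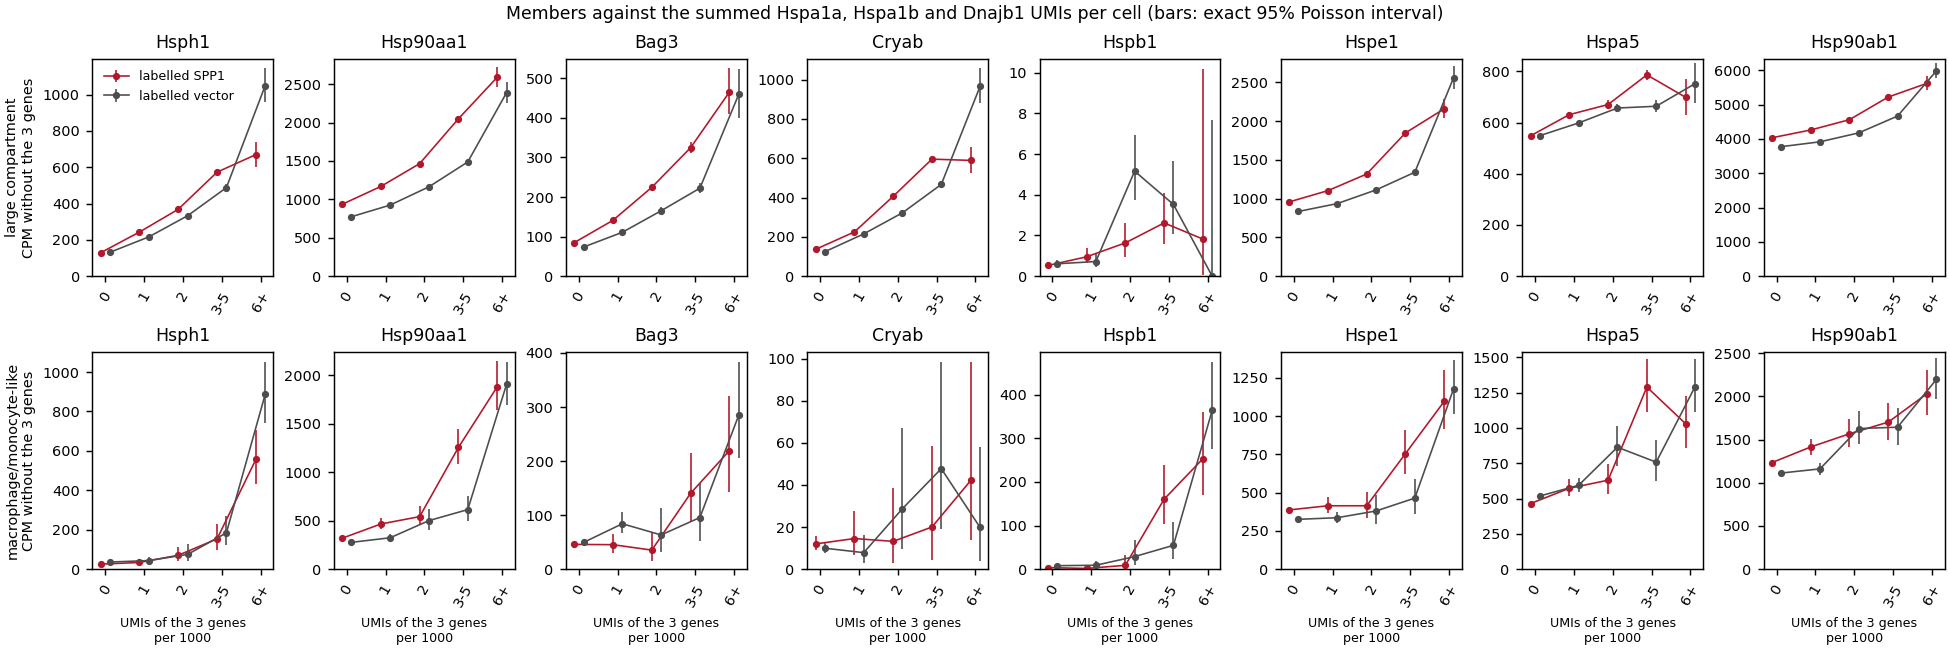
CPM of 8 members (vertical axes, from 0), with the 3 calling genes left out of the total, by the number of Hspa1a, Hspa1b and Dnajb1 UMIs among 1000 per cell (horizontal axes), in the large compartment (top) and macrophage/monocyte-like cells (bottom), for the library labelled SPP1 (red) and the library labelled vector (grey), with exact 95% Poisson intervals. Hsph1 and Hsp90aa1 climb over the steps in both classes, while Hspb1 is highest at 6 or more UMIs in macrophages and stays at or under 5.16 CPM in the compartment.

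Within the compartment, heat shock-high cells were gathered in some clusters. The share was 13.1% and 8.86% in cluster 0, led by the matrix genes Dpt, Aspn and Ogn, 9.88% and 9.07% in cluster 7, led by Cryab, the metallothioneins Mt1 and Mt2 and the hypoxia gene Bnip3, and 10.4% and 11.8% in cluster 3. It was 0.265% and 0.373% in cluster 11, led by S-phase genes such as Tyms and Rrm2, and 0.942% and 0.977% in cluster 6. Cluster 4 had 2.27% (1.47 to 3.33) and 0.471% (0.153 to 1.095), and cluster 8 had 1.67% (0.805 to 3.05) and 2.82% (1.83 to 4.14), so the libraries did not differ in 1 direction throughout.

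Most inducible members spread more widely over the 11 clusters filled by both libraries than the constitutive ones. Hspa1b differed 7.56-fold between its highest and lowest cluster in the library labelled SPP1 and 8.12-fold in the library labelled vector, Dnajb1 9.79-fold and 6.49-fold, Cryab 9.31-fold and 7.28-fold, and Dnajb4 5.83-fold and 5.37-fold. The inducible Hsp90aa1 (1.86-fold and 1.63-fold) and Chordc1 (2.28-fold and 2.45-fold) were within or near the range of the constitutive genes, whose widest were Dnaja1 at 3.35-fold and 2.11-fold and Fkbp4 at 2.74-fold and 2.41-fold. Hsp90ab1 differed 1.42-fold and 1.32-fold, Bag1 1.26-fold and 1.28-fold, and Hspa5 1.67-fold and 1.41-fold. Dnajb9 had the widest spread of the ER genes, at 4.07-fold and 3.62-fold. Cluster 7 held the most Cryab, at 591 and 469 CPM, Bag3, at 214 and 156 CPM, Hsph1, at 345 and 293 CPM, and Hspe1, at 1854 and 1377 CPM. Cluster 11 held the least Hspa1b, at 51.7 and 50.8 CPM, and the most Hsp90ab1, at 5061 and 4526 CPM. Cluster 13, led by Slc39a1, Gm49164 and Actb, held the most Hspa8 (1010 and 994 CPM), Ahsa1 (85.5 and 83.3 CPM), an activator of HSP90, and Stip1 (163 and 168 CPM). It was the shallowest compartment cluster, at 0.72 of the library's median depth. Slc39a1, Gm49164 and Actb were also among the leading genes of cluster 10, which was set aside for low UMI counts.

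Macrophage sub-clusters showed the same concentration. In sub-cluster 9, with 56 and 87 cells, 38.2% (25.4 to 52.3) and 21.8% (13.7 to 31.98) were heat shock-high, and the leading genes were Hspa1b, Hspb1, Plcxd2, Hspa1a, Gpnmb and Atp6v0d2, although the members took no part in the clustering. When macrophages were clustered with the members or with predicted doublets kept, no sub-cluster had any of the 32 among its 10 leading genes. Hspa1a was 1291 and 858 CPM there, Hspa1b 1364 and 1001 CPM, Hspa5 934 and 805 CPM and Dnaja1 307 and 209.5 CPM. Sub-cluster 10, led by interferon-induced Ifit genes, had 17.6% and 14.3% of only 17 and 28 cells. In the 7 other sub-clusters the share was at most 7.25% and 5.56%. Sub-cluster 7, led by Plac8 and Ly6c2, had 1.89% and 0.926% and the lowest Hspa1a of the vector-labelled library, at 66.8 and 39.7 CPM.

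**Figure D5:**
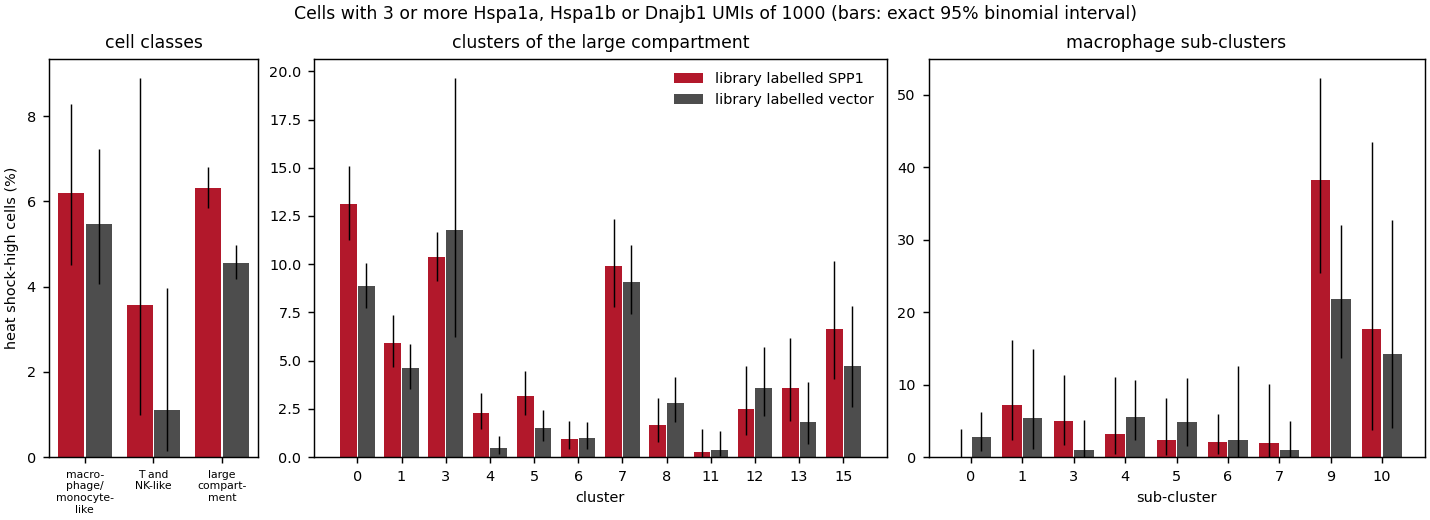
Share of heat shock-high cells (vertical axes, %) in the 3 cell classes, the 12 clusters of the large compartment and the macrophage sub-clusters (horizontal axes), for the library labelled SPP1 (red, left bar) and the library labelled vector (grey, right bar), with exact 95% binomial intervals. Clusters 0, 3 and 7 of the compartment reach 8.86% to 13.1%, and macrophage sub-cluster 9 reaches 38.2% and 21.8%.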

How the data were processed

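Both single-cell libraries were deposited by the authors as raw UMI counts per gene and cell; per the submitters' processing notes, Cell Ranger 2.1.1 was used with build GRCm39. The cell filter asked for 300 genes and 500 UMIs or more and a mitochondrial share of 15% or less, and predicted doublets (426 and 330, 3.05% and 2.32%, in the libraries labelled SPP1 and vector) were removed by comparison with simulated doublets. Clustering left the 32 genes out (2000 variable genes, 30 components, 20 neighbours, Leiden resolution 1.0, leidenalg 0.10.2, scikit-learn 1.9.0). T and NK and macrophage clusters were clustered again. Sub-clusters with Hmga2, Sox9, Tafa1 and Hoxa9 together at 0.25 or more of their compartment level were set aside as mixed. Counts were summed per class and library and scaled to CPM (Python 3.11.15, numpy 2.4.6, pandas 2.3.3).

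Intervals are exact, from scipy 1.17.1 (Poisson for levels, Clopper-Pearson binomial for shares, conditional binomial for ratios), except the normal approximation on the log scale for ratios of shares. They cover counting error only, and no test across samples was possible with 1 library a group. A library ratio was called past 1.5-fold, among genes with at least 20 UMIs, where its interval left out 0; a class ratio was called past 2-fold the same way in both libraries. In simulated counts, 200 genes changed 2-fold were recovered at 85.5% in the compartment (20026 genes), 86.5% in macrophages (11977) and 70.5% in T and NK-like cells (6842). Unchanged genes were called at 0.953%, 1.44% and 2.51%. The simulation drew Poisson class sums without spread between cells or libraries, so these rates do not hold for genes counted mostly in a few cells.

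The members and lists were chosen with earlier results of these data known. All 32 members are described; of each other list, at most the 2 highest and 2 lowest library ratios with at least 100 UMIs in each library are named. Ddit3, found on 2 rows, was not used. Genes that lead clusters or heat shock-high cells were chosen after their values were seen. Promoter windows came from RefSeq (GRCm38.p6), a build other than that of the counts; how reads shared by Hspa1a and Hspa1b were counted is not given. Alternatives were TMM (edgeR 4.0.16) and median of ratios scaling, count and cell filters, doublets kept, thinning, cluster weights and other cuts for heat shock-high cells.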

Additional observations from a re-analysis of the deposited data

How the results depend on the processing

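With 1 library a group and intervals of counting error only, no difference between the libraries can be told apart from the mouse, the construct or the preparation, and depth limits T and NK-like cells most. Alternatives without shared barcodes, without heat shock-high cells, with named clusters kept whole, without the low-UMI sub-cluster, another thinning seed and equal weights for the share were chosen after seeing the data. Of the library ratios of single members under the alternatives, 1047 kept their side of the threshold, 10 gained the call and 10 lost it, and no called value changed sign.

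The count of members past 1.5-fold in the compartment was 0, and 1 (Dnaja4, 0.83) after thinning to 1000 UMIs. In macrophages it was 1, but 0 with at least 100 UMIs in each library, with equal cluster weights and with named clusters kept whole, 2 with doublets kept and after thinning, and 3 without heat shock-high cells. In T and NK-like cells it was 2, but 1 with median of ratios scaling, with named clusters kept whole and without heat shock-high cells, 0 with at least 100 UMIs in each library and after thinning, and 3 with the stricter cell filter. The 10 members at least 2-fold lower in T and NK-like cells than in the compartment were 5 with named clusters kept whole; the counts for macrophages stayed at 2 higher and between 13 and 15 lower. Hspb1 in T and NK-like cells, with 0 UMIs in 1 library, gave no ratio. The cause of these moves was not tested.

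The compartment log2 ratio of heat shock-high shares (0.47) was 0.14 with Hspa1a and Hspa1b alone, 0.21 without the cluster over 90% from 1 library and 0.29 with equal cluster weights; the other alternatives gave 0.37 to 0.48. The macrophage ratio (0.18) was 0.48 (0.03 to 0.93) at a threshold of 2 UMIs and -0.18 (-0.83 to 0.47) at 6 of 2000 UMIs. No paired analysis was possible because each group has 1 library.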
